A study of Arabidopsis thaliana with 21 samples.

Results

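The transcripts described here are those whose level was at least 2 log2 units lower after 8 h with arsenate than in plants without supplement, while 1 mM phosphate left their mean within 0.7 log2 units of the control. On the Affymetrix ATH1 array of Arabidopsis thaliana, 197 of 22746 probe sets met both conditions, which is 0.866% of them. A probe set is a group of short oligonucleotides that together report 1 transcript or a few related ones. The group means of the arsenate, 1 mM phosphate and control arrays chose the members, so the differences of those groups from each other are given below as a description, with no test. The arrays with 30 µM phosphate took no part in the choice.

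The study treated wild-type plants of the Col-0 accession. All groups, the controls included, were raised for 7 days with 1 mM phosphate in Johnson medium and then kept for 2 days without it, so every plant came from a short phosphate starvation. They were then moved to liquid medium with 30 µM arsenate, with 30 µM phosphate, with 1 mM phosphate, or with neither (control), and each of these 4 groups has 3 independent biological samples at 8 h, 1 array per sample. For the 1 mM phosphate samples, the labels' free-text description says 30 µM while title, source and characteristics say 1 mM, and the dose is taken as 1 mM here. The labels name no tissue and no number of plants per sample.

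Arsenate is the pentavalent oxyanion of arsenic and a chemical analog of phosphate. Plant roots take it up through high-affinity phosphate transporters, whose genes are switched on by phosphate starvation, and inside the cell it can stand in for phosphate in enzyme reactions and is reduced to arsenite, which binds thiols. Comparing arsenate with phosphate at the same dose and with a full phosphate resupply separates transcripts that respond to arsenate from those that respond to either oxyanion. The sources used here do not pair ATH1 probe sets with genes, so members carry their array identifiers and no gene names, functions or sequences.

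Values are deposited log2 expression values from RMA, a method that corrects background, brings all arrays to one distribution and summarises the probes of each set. A shift shared by most transcripts is therefore not seen, and differences are compressed near the floor. Array medians lay between 5.02 and 5.18, and replicate arrays correlated across probe sets with Pearson's r from 0.981 to 0.995. RNA of whole samples was measured, so fewer cells of a type and less RNA per cell cannot be told apart.

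A pair of arrays stood apart. A control probe set named AFFX-r2-At-U12639_at read 8.09 on arsenate replicate 1 and 8.07 on 30 µM phosphate replicate 1, against 3.31 to 3.78 on the other 10 arrays. Besides it, 13 probe sets lay more than 1 log2 unit above all other arrays on both, none of them a member, and 3 lay more than 1 below, 1 of them a member. Leaving out both arrays gave 190 members in place of 197. The 3′ minus 5′ difference of the GAPDH control probe sets, a measure of RNA integrity and labelling, was 0.41, 0.72 and 0.49 on the arsenate arrays, 0.45, 0.94 and 1.22 with 30 µM phosphate, 1.41, 1.19 and 1.41 with 1 mM phosphate, and 0.96, 0.89 and 1.00 in the controls. For ubiquitin the same difference was 1.24 to 1.34 with arsenate and 1.23 to 1.32 in the controls. A second series of control probe sets gave GAPDH differences of -0.04, 0.10 and 0.08 with arsenate and 0.15, 0.10 and 0.17 in the controls, closer to each other. In this series the arrays that stood apart were the lowest for actin, at 1.24 on arsenate replicate 1 and 1.11 on 30 µM phosphate replicate 1, against 1.42 to 1.93 on the other 10. They were also the lowest for GAPDH (-0.04 and -0.21) and ubiquitin (-0.45 and -0.38). The part of these differences in the results was not tested.

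The members were bright transcripts in plants without arsenate, which the choice of members fixed in part. Their group means had a median of 4.93 with arsenate, 7.89 with 30 µM phosphate, 7.83 with 1 mM phosphate and 7.97 in the controls. On single arrays, the median over members was 4.67, 5.11 and 5.26 with arsenate. It was 7.80, 8.02 and 7.97 with 30 µM phosphate, 7.85, 7.82 and 7.80 with 1 mM phosphate, and 7.81, 8.10 and 8.01 in the controls. The 3 arsenate arrays stood well below the 9 other arrays, which differed little from each other.

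**Figure D1:**
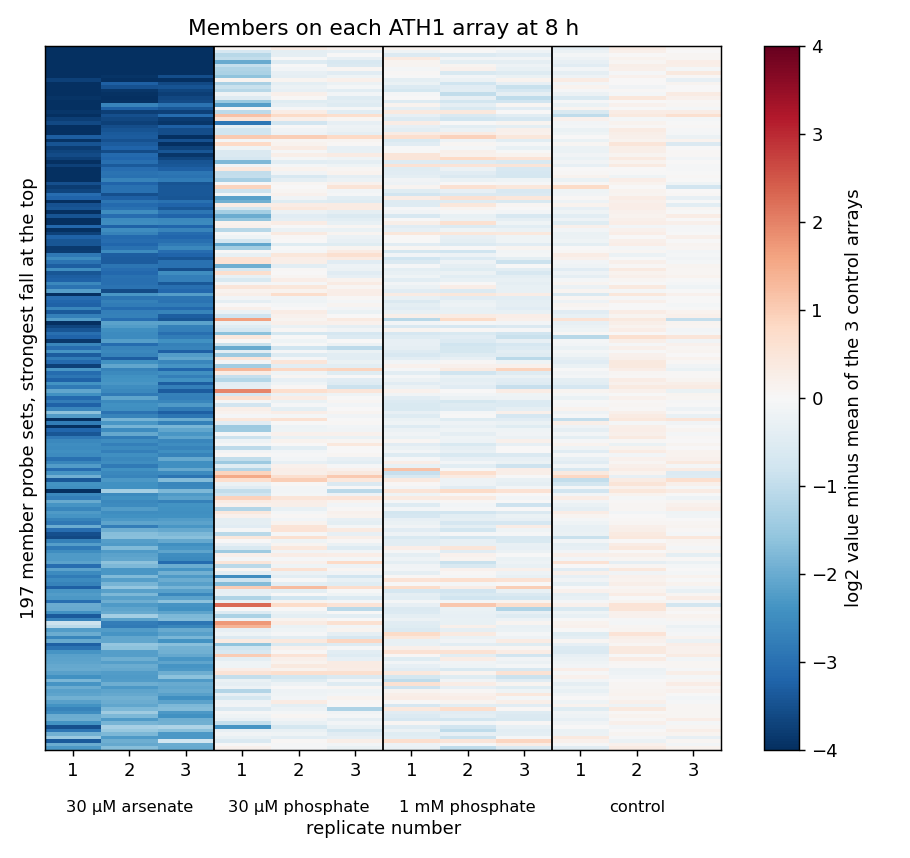
Each row is 1 of the 197 member probe sets and each column 1 of the 12 arrays, grouped by treatment with the replicate number under the column; colour gives the log2 value minus the mean of the 3 control arrays, and the scale ends at 4 in both directions. The 3 arsenate columns are blue throughout, the phosphate and control columns are pale, and 30 µM phosphate replicate 1 shows more blue and red rows than the columns beside it.

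Set against all transcripts of the same array, the typical member was at the 44.3, 50.8 and 52.9 percentile on the 3 arsenate arrays. It was at the 82.5, 84.7 and 84.3 percentile with 30 µM phosphate, at 83.7, 83.3 and 83.2 with 1 mM phosphate, and at 82.6, 85.4 and 84.6 in the controls. On all 3 arsenate arrays, 83 members lay below the array median and 66 above it, 14 lay above the upper quartile, and 3 lay below the lower quartile. On all 3 control arrays, 197 members lay above the array median and 133 above the upper quartile. The members thus lay around the middle of the distribution with arsenate and in its upper part in the other groups. The choice asked for a control mean at least 2 log2 units above the arsenate mean. As the values have a floor, this fixed the high place in the controls and 1 mM phosphate in part.

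**Figure D2:**
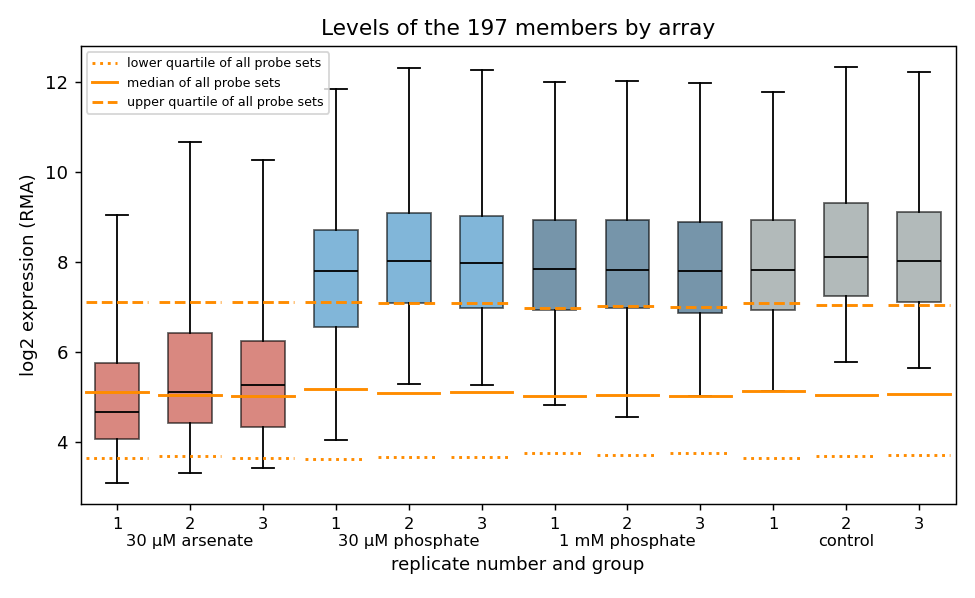
Boxes show the median and quartiles of the 197 members on each array (log2, whiskers to the lowest and highest member), and orange lines show the lower quartile, median and upper quartile of all 22746 probe sets on that array. The member medians lie near the array median on the 3 arsenate arrays (4.67 to 5.26) and above the upper quartile on the other 9 (7.80 to 8.10).

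Arsenate minus control ranged from -6.39 to -2.01 over the members, with a median of -2.65 and quartiles of -3.19 and -2.27. The median over all probe sets was -0.02. In 10 members the difference was -4 or lower, in 56 between -4 and -3, and in 131 between -3 and -2, of which 48 lay above -2.25. The 3 members nearest the threshold had -2.01 each, and the 3 nearest probe sets outside it -1.99 each. For 1 mM phosphate minus control, the members nearest the limit had -0.69, -0.68 and 0.68, and the nearest probe sets outside it -0.70, -0.71 and -0.73.

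The deepest difference belonged to 254820_s_at, an identifier type that marks probes shared by related transcripts. It read 4.44, 5.14 and 4.74 with arsenate, 11.24, 11.50 and 11.34 with 30 µM phosphate, 11.31, 11.25 and 11.14 with 1 mM phosphate, and 10.80, 11.47 and 11.23 in the controls. The arsenate arrays lay at the middle of their distribution and all other arrays near its top, with no overlap. Arsenate minus control was -6.39, a level 84.1-fold lower.

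The next, 250764_at, read 5.14, 6.02 and 6.12 with arsenate, 10.12, 10.40 and 10.45 with 30 µM phosphate, 10.60, 10.75 and 10.58 with 1 mM phosphate, and 10.56, 10.97 and 10.81 in the controls. Its difference was -5.02, or 32.4-fold lower. The arsenate arrays again stood apart, and the 30 µM phosphate arrays were all a little below the controls.

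The 10 members with the deepest difference had arsenate means of 3.90 to 5.76 (median 4.72), against control means of 8.15 to 11.17 (median 9.34). With 30 µM phosphate they differed from the controls by -1.06 to 0.19 (median -0.47). The 56 members between -4 and -3 had a median of 4.77 with arsenate and 8.21 in the controls. The 131 between -3 and -2 had 5.16 with arsenate and 7.59 in the controls. The 3 classes thus differed more in their control levels than in their levels with arsenate. They were cut by the difference of these same values, which have a floor, so this was fixed in part.

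Ordered by control level and divided into 3 groups of near-equal size, the group with the lowest levels (65 members, control means 5.59 to 7.41) had a median of 4.26 with arsenate and 6.84 in the controls, and a median difference of -2.44. The middle group (66 members) had 4.96 with arsenate and 7.97 in the controls, with -2.92. The group with the highest levels (66 members, control means 8.66 to 12.10) had 6.70 with arsenate and 9.58 in the controls, with -2.93. Below the array median on all 3 arsenate arrays lay 56 members of the lowest group, 25 of the middle and 2 of the highest. With arsenate, 26 members kept a mean of at least 7, and 2 of them a mean of at least 9. The transcripts brightest in the controls thus had a median difference close to that of the middle group and a higher median level with arsenate. The control levels that cut these groups also enter the difference and the choice of members. As the values have a floor too, this order was fixed in part.

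**Figure D3:**
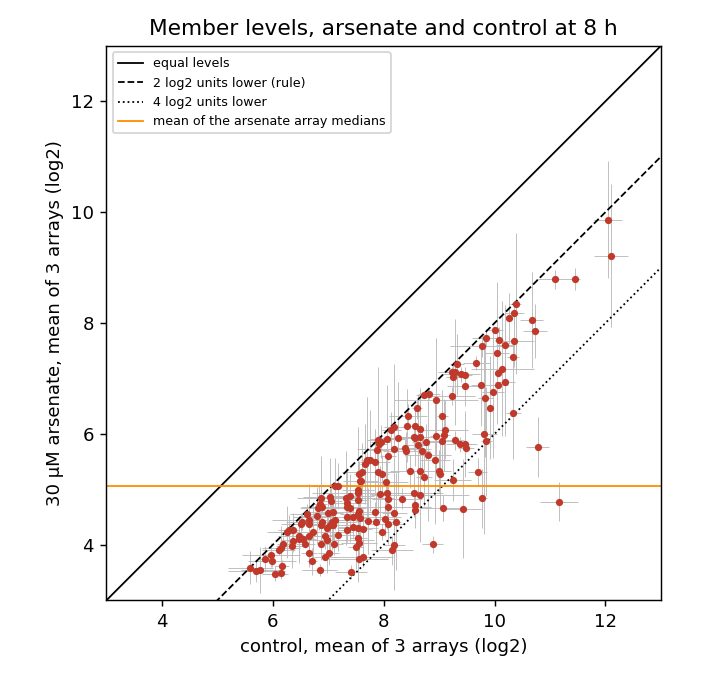
Each point is 1 member, with its mean over 3 control arrays on the horizontal axis and over 3 arsenate arrays on the vertical axis (log2), and grey bars of 1 SD. All 197 points lie on or below the dashed line 2 units under equality that the choice of members set, and the point farthest below it, 254820_s_at, has 4.77 with arsenate and 11.17 in the controls. The orange line is the mean of the arsenate array medians.

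The difference was present array by array. All 3 arsenate arrays lay below all 3 control arrays in 197 of 197 members. This holds for 19.5% of all probe sets, and because these arrays chose the members nothing is read from it. Against all 9 other arrays, the 3 arsenate arrays were lowest in 194 members, and in 12.2% of all probe sets, from which nothing is read either. The lowest of the 9 other arrays exceeded the highest arsenate array by a median of 1.64 log2 units and by at least 1 in 155 members. In the remaining 3 members the ranges overlapped, by 1.12, 0.73 and 0.08. Within the same replicate number, the median of arsenate minus control was -2.76, -2.72 and -2.61 for numbers 1, 2 and 3. It was -2 or lower in all 3 numbers for 139 members and below 0 in all 3 for all 197. The same arsenate and control arrays chose the members. The gaps and the counts within replicate numbers are therefore a description too, and nothing is read from them.

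Among the 4 groups, arsenate had the lowest mean in all 197 members, at least 0.903 log2 units under the next lowest group. The choice of members fixed this against the controls and 1 mM phosphate. The order relative to 30 µM phosphate was not fixed outright. The arsenate arrays chose the members for being low, however, so nothing is read from that order either. The other groups had no common order. The highest mean was that of 30 µM phosphate in 59 members, of 1 mM phosphate in 33 and of the controls in 105. The means of the 3 groups without arsenate spanned a median of 0.53 (0.02 to 1.46), under 0.5 in 87 members and at least 1 in 19. With 1 mM phosphate the members differed from the controls by a median of -0.22, with quartiles of -0.48 and -0.02, within the limit set by the choice of members.

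Spread between replicates was wider in the members than over all probe sets, in a comparison not matched on level. Outside arsenate the members were brighter than most probe sets, and differences are compressed near the floor. The median SD within a group was 0.327 with arsenate over members, against 0.155 over all probe sets. It was 0.321 against 0.142 with 30 µM phosphate, 0.156 against 0.136 with 1 mM phosphate, and 0.216 against 0.138 in the controls. In 3 of the 4 groups the array numbered 1 was more often the lowest in the members than over all probe sets. Ties counted, replicate 1 was lowest in 122 members (61.9%) with arsenate, against 42.4% of all probe sets. With 30 µM phosphate it was lowest in 124 (62.9%), against 44.4%, and in the controls in 136 (69.0%), against 39.1%. With 1 mM phosphate it was lowest in 59 (29.9%), against 33.7%.

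The comparison of 30 µM phosphate with the controls asked whether the same dose of the nutrient oxyanion moved these transcripts. It used arrays that took no part in the choice of members, but the control arrays did take part. The members differed by a median of -0.18, with quartiles of -0.45 and 0.08, and ranged from -1.33 to 1.19. The median over all probe sets was 0.00. In 134 members the mean was lower than in the controls and in 62 higher, and 163 differed by less than 0.7. Limma called 4 members lower and 1 higher at an adjusted p of 0.05, or 2.54% of members, against 3.87% of all probe sets (1.52% lower and 2.35% higher). By direction, 2.03% of members were called lower, near the share of all probe sets, and 0.508% higher, below it. These shares rest on 4 members and 1 member, so nothing about the members is read from them. The fit with a block given next gave other shares. Without adjustment, 29 members had a lower and 9 a higher mean at a limma p under 0.05. Without 30 µM phosphate replicate 1 these counts were 10 and 8. The share of all probe sets at this unadjusted level is not given here, so nothing is read from these counts.

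Same-numbered arrays of the arsenate, 30 µM phosphate and control groups deviated together. With the replicate number as a block over these 3 groups, 17 members were called lower and 5 higher, or 11.2%, against 7.3% of all probe sets (3.11% lower and 4.19% higher). Lower calls were 8.63% of the members, above the share of all probe sets, and higher calls 2.54%, below it. The control and arsenate arrays in this fit also chose the members. A choice that favours high control values can by itself lower the difference of 30 µM phosphate from the controls. The shares are therefore a description, and nothing about the members is read from the excess of lower calls. The 3 arrays with 30 µM phosphate lay below all 3 controls in 34 of 197 members and 2180 of 22746 probe sets (9.58%). They lay above all 3 in 14 of 197 members and 2356 of 22746 probe sets (10.4%). The control arrays also chose the members, so nothing is read from these counts. In the fit with the block over 3 groups the lower calls ranged from -1.30 to -0.44 and the higher ones from 0.62 to 1.06. All 5 members called without the block were among these 22. In the fit without the block, leaving out control replicate 2 gave 0 called members, against 1.26% of all probe sets. At an unadjusted limma p of 0.05 it gave 10 lower and 10 higher. The share of all probe sets at that level is not given, so nothing is read from these 2 counts. Without control replicate 3, limma called 1 member (0.508%), against 1.47% of all probe sets. Without arsenate replicate 1 it called 9 (4.57%), against 5.78%. Without 30 µM phosphate replicate 1, 2 or 3 it called 3 (1.52%), 2 (1.02%) and 2 (1.02%). The shares of all probe sets there were 3.69%, 2.1% and 1.14%.

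The largest called fall with 30 µM phosphate was in 260535_at. It read 3.88, 4.30 and 4.30 with arsenate, 4.91, 6.13 and 5.89 with 30 µM phosphate, 6.58, 6.23 and 6.38 with 1 mM phosphate, and 6.67, 7.13 and 7.02 in the controls. Its levels stepped down from the controls through both phosphate groups to arsenate. The difference of 30 µM phosphate from the controls was -1.30 ± 0.264 (SE, limma adjusted p = 0.021, n = 3 arrays in each group). The call was lost without 30 µM phosphate replicate 3 (adjusted p = 0.053) and without control replicate 2 (0.099) or 3 (0.084), in a range of 0.0023 to 0.099 over the alternatives. The 4 members called lower had a median of -0.92, and the smallest of these differences was -0.76. All 4 were also lower with 1 mM phosphate, by -0.69 to -0.54, close to the limit of the choice.

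The 1 member called higher was 251665_at, looked up after its values were seen. It read 4.36, 4.31 and 4.57 with arsenate, 7.07, 7.22 and 7.18 with 30 µM phosphate, 6.96, 6.67 and 7.11 with 1 mM phosphate, and 6.50, 6.34 and 6.76 in the controls. All 3 arrays with 30 µM phosphate lay above all 3 controls. The difference was 0.62 ± 0.138 (SE, limma adjusted p = 0.03, 0.0074 to 0.13 over the alternatives). The call was lost without 30 µM phosphate replicate 2 (0.091) or 3 (0.11) and without control replicate 1 (0.064) or 2 (0.13).

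The largest difference in each direction was not called. The lowest, 265290_at, read 4.37, 4.24 and 4.08 with arsenate, 5.08, 7.20 and 7.63 with 30 µM phosphate, 8.26, 7.95 and 8.09 with 1 mM phosphate, and 7.86, 8.10 and 7.95 in the controls. On 30 µM phosphate replicate 1 it lay nearer to the arsenate arrays, and on replicates 2 and 3 nearer to the controls. The difference was -1.33 ± 0.475 (SE, limma adjusted p = 0.17, 0.05 to 0.41 over the alternatives), -0.555 without 30 µM phosphate replicate 1 and -0.79 with array weights.

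The highest, 248727_at, read 4.67, 4.38 and 4.30 with arsenate, 8.92, 7.39 and 7.20 with 30 µM phosphate, 6.31, 7.72 and 7.36 with 1 mM phosphate, and 6.83, 7.20 and 5.91 in the controls. Replicate 1 was again the array apart, here upward, and the controls spanned more than 1 log2 unit. The difference was 1.19 ± 0.473 (SE, limma adjusted p = 0.23, 0.069 to 0.63 over the alternatives), and 0.65 without 30 µM phosphate replicate 1.

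Replicate 1 carried much of the spread with 30 µM phosphate. Relative to the control mean, replicate 1 lay lower by 1 or more in 43 members, replicate 2 in 0 and replicate 3 in 4. It lay higher by 1 or more in 11 members, and each of the other replicates in 1. Against the mean of replicates 2 and 3, replicate 1 was lower by 1 or more in 29 members (14.7%), against 143 of all probe sets (0.629%). It was higher by 1 or more in 6 members (3.05%), against 348 of all probe sets (1.53%). On the same array, among the 69 probe sets that were as low with arsenate but moved by 0.7 or more with 1 mM phosphate, 4 (5.8%) were lower by 1 or more. Among 349 probe sets at least 2 log2 units higher with arsenate and within 0.7 of the control with 1 mM phosphate, 0 were lower and 15 (4.3%) higher by 1 or more. The mean of replicates 2 and 3 alone differed from the controls by a median of -0.08 over the members (-0.93 to 0.975).

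**Figure D4:**
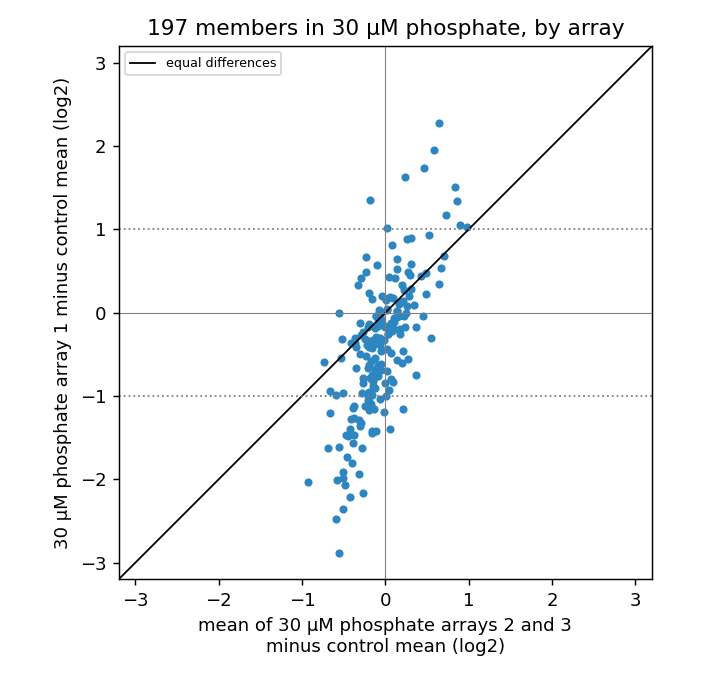
Each point is 1 of the 197 members, with the mean of 30 µM phosphate replicates 2 and 3 minus the control mean on the horizontal axis and replicate 1 minus the control mean on the vertical axis (log2). Replicates 2 and 3 stay between -0.93 and 0.975, whereas replicate 1 lies at -1 or lower in 43 members and at 1 or higher in 11 (dotted lines).

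The 29 members that were lower on this array had a median of -1.62 there relative to the controls (-2.89 to -0.75). On replicates 2 and 3 their median was -0.37, against -0.06 in the other 168 members. Their arsenate minus control had a median of -3.23, against -2.61 in the 168, and their 1 mM phosphate minus control a median of -0.19, against -0.24. Control levels were alike, at a median of 8.07 in the 29 and 7.94 in the 168. These are descriptions, since the 29 were picked by their values. Arsenate replicate 1 showed the same direction, lower than the mean of arsenate replicates 2 and 3 by 1 or more in 39 members (19.8%), against 1.49% of all probe sets. Among the 69 probe sets that 1 mM phosphate also moved, this share was larger, at 17 (24.6%), so on that array it was not particular to the members. The 2 sets of low members shared 12, which is 30.8% of the 39 and 41.4% of the 29. Control replicate 1 was lower than the mean of the other controls by 1 or more in 8 members (4.06%), against 9 of the 69 and 0.246% of all probe sets. For 1 mM phosphate replicate 1 this held for 3 members (1.52%), 0 of the 69 and 0.343% of all probe sets. The part of what raised the control probe set AFFX-r2-At-U12639_at on arsenate and 30 µM phosphate replicate 1 in these values was not tested.

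At the equal dose of 30 µM, arsenate minus phosphate had a median of -2.57 over the members (-6.59 to -0.90). The arsenate arrays were used to choose the members, so this is a description. All 3 arsenate arrays lay below all 3 arrays with 30 µM phosphate in 194 members, and in 22% of all probe sets, from which nothing is read.

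Of the 266 probe sets at -2 or lower with arsenate, the members are 74.1%. Of the other 69, 63 were lower by 0.7 or more with 1 mM phosphate and 6 were higher. The depth with arsenate was alike, at a median of -2.65 in the members and -2.69 in the 69. Both sets were cut at the same -2, which fixed this in part. With 30 µM phosphate, the members had a median of -0.18 and the 69 a median of -0.09, but the 69 reached -3.41. The difference between 30 µM and 1 mM phosphate had a median of 0.11 in the members and 0.84 in the 69, which the choice by the 1 mM arrays fixes in part, and no test was made. Of the identifiers, 8 members (4.06%) end in _s_at, which marks probes shared by related transcripts, against 4.11% of all probe sets.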

How the data were processed

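RNA of 12 wild-type samples at 8 h was hybridised to Affymetrix ATH1 arrays as biotin-labelled cRNA, 1 sample per array. The deposited log2 values were made by the authors with RMA, per the submitters' processing notes; no version of it is given in these notes. The table holds values to 2 decimals and 0 unused value columns. The 64 control rows were left out of the choice of members and of the tests. Groups and replicate numbers came from the sample titles. Precision is limited by having 3 arrays in each group.

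Each contrast was fitted over all 22746 probe sets and all 12 arrays with limma 3.58.1 in R 4.3.3 (lmFit, contrasts.fit, eBayes), two-sided, with Benjamini-Hochberg adjustment over all probe sets calling probe sets at adjusted p < 0.05. Standard errors are the moderated ones. Calls are given for 30 µM phosphate minus control alone, because the arsenate and 1 mM phosphate arrays chose the members. The procedure was tested on simulated data. Same-numbered arrays of the arsenate, 30 µM phosphate and control groups deviated together from their group means (r 0.13 to 0.49 in every pair). The labels state no pairing, and only arrays with the same number were correlated, so a pairing is not established. Pairs with 1 mM phosphate had r of -0.20 to 0.07, so the block over these 3 groups was added after the data were seen.

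Members and lists were chosen with earlier results of these data known. Without names for the probe sets, the planned gene lists, markers and motifs were not run, and up to 2 identifiers per direction and contrast were named, by the lowest and highest difference. The single higher call with 30 µM phosphate was named outside that rule. The 9 NimbleGen arrays at 1.5 h were not used here, because no table links their loci to ATH1 probe sets.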

Additional observations from a re-analysis of the deposited data

Results flagged for a closer look

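The control probe set AFFX-r2-At-U12639_at takes no part in any comparison, and its signal was high on a pair of arrays. It read 8.09 on arsenate replicate 1 and 8.07 on 30 µM phosphate replicate 1, against 3.49 to 3.78 on the 1 mM phosphate arrays and 3.49 to 3.59 on the control arrays. The other arsenate and 30 µM phosphate arrays read 3.31 to 3.74, so the signal went with single arrays and not with a treatment. The median over the members was also lowest of its group on these arrays, at 4.67 on arsenate replicate 1 and 7.80 on 30 µM phosphate replicate 1, and in the controls it was lowest on replicate 1 too, at 7.81.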

How the results depend on the processing

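The number of members was 344 at an arsenate threshold of -1.5 and 119 at -2.5. It stayed within 1.5 times of 197 under the other alternatives and was 187 to 214 on leaving out single arrays, and 132 members met the rule without any 1 of the 12. For 30 µM phosphate minus control, membership was kept as it was. The median over members was negative under all 21 alternatives (-0.283 to -0.083). The counts of calls were small and moved, and so did the share of all probe sets called. With the block over 3 groups, 11.2% of members and 7.3% of all probe sets were called in either direction. Members called lower numbered 4, and 7 with a replicate block over all 4 groups, 17 with the block over 3 groups and 1 on the compared groups only. Members called higher numbered 1, and 2 with the block over all groups and 5 with the block over 3 groups. They numbered 3 on the compared groups only, after further quantile normalization, without dim probe sets and with trended robust variances. They also numbered 3 without both arrays numbered 1, 7 with array weights, and 0 after median centring (9 unadjusted). The share of all probe sets at the unadjusted level is not given, so nothing is read from the 9. Leaving out single arrays gave 0 to 5 lower and 0 to 4 higher. In either direction, 4.57% of members and 5.08% of all probe sets were called with the block over all groups. These shares were 2.03% and 2.72% on the compared groups only, and 3.55% and 3.81% after further quantile normalization. They were 3.55% and 6.16% without dim probe sets, and 3.55% each with trended robust variances. After median centring they were 2.03% and 3.34%, and 6.6% and 10.5% with array weights. Without both arrays numbered 1 they were 3.55% and 5.85%. Of all probe sets, 534 were called higher, and 330 on the compared groups only, 1435 with array weights, 813 without both arrays numbered 1 and 952 with the block over 3 groups. Called lower were 346, and 942 with array weights and 708 with that block. Leaving out single arrays gave 128 to 536 lower and 131 to 778 higher. The cause of these shifts was not tested. The call of 260535_at was also lost on the compared groups only (adjusted p = 0.078), and that of 251665_at there (0.051) and after median centring (0.061). Tests of the members at 1.5 h were not run, because no table links NimbleGen loci to ATH1 probe sets. The 3 arrays per group limit what the comparison with 30 µM phosphate can show.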

Other observations

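The control rows of the array carry the names of a few housekeeping transcripts, which were not members and were not tested. GAPDH, a glycolytic enzyme, was brighter with arsenate at its 5′ probe set: 11.57, 11.22 and 11.53 with arsenate, 10.81, 10.39 and 10.15 with 30 µM phosphate, 10.11, 10.24 and 10.13 with 1 mM phosphate, and 10.55, 10.67 and 10.68 in the controls. All 3 arsenate arrays lay above all 9 others. At the 3′ probe set it read 11.98 ± 0.04 with arsenate and 11.58 ± 0.087 in the controls (mean ± SD, n = 3). Ubiquitin, the tag for protein breakdown, read 13.18 ± 0.044 with arsenate and 12.83 ± 0.055 in the controls at its 3′ probe set. Actin, a cytoskeletal protein, read 10.74 ± 0.068 with arsenate and 10.83 ± 0.061 in the controls at its 3′ probe set.

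A count of the opposite kind may help to place the members. Probe sets at least 2 log2 units higher with arsenate and within 0.7 of the control with 1 mM phosphate numbered 349, against 197 members. On arsenate replicate 1, their median lay 0.295 above the mean of arsenate replicates 2 and 3, while the median of the members lay at -0.32.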
